A study of Mus musculus with 6 samples.

Results

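The genes described here are 7 genes of the MHC class II antigen presentation pathway, H2-Aa, H2-Ab1, H2-Eb1, Cd74, H2-DMa, H2-DMb1 and Ciita. They were taken by name from the 32429 genes in the raw count tables. For each gene the level in CPM (UMIs, unique molecular identifiers that count captured transcripts, scaled to a total of 1000000 UMIs) and the share of cells with at least 1 UMI were computed per library, deposited cell type and deposited cluster. The study profiled living CD45-positive leukocytes sorted from mouse hippocampus by 5' single-cell RNA sequencing, after learned helplessness, a paradigm in which inescapable footshocks leave some mice unable to escape later shocks. There were 6 libraries, 1 for each group of mice. UMIs count transcripts by their 5' ends, so levels of different genes are given per transcript and not per length.

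All mice carried the strain label BC57BL/6, no transgene or other allele was named, and the labels give no age. The non-shocked library came from mice that received no footshocks. In the acute paradigm mice were given 180 inescapable shocks at 0.3 mA and were tested the next day over 30 trials of 24 s. Mice that stayed able to escape gave the acute non-helpless library, and mice that became helpless gave the acute helpless library. In the chronic paradigm, mice passed through the acute one and were then retested each week for 3 weeks. Its libraries came from chronic non-helpless mice, from chronic non-recovered mice and from chronic recovered mice, which had been helpless and ceased to be so. How many mice entered a library is not given in the labels. With 1 library per group no spread between replicates exists, so every difference below is a difference between libraries and carries no test. The 95% intervals after levels (exact Poisson), shares (exact Clopper-Pearson) and ratios (conditional exact) cover counting error only.

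The libraries held 121 to 687 cells each, 3005 in all with 14097425 UMIs. Microglia made up 2721 of them: 552 non-shocked, then 569 and 630 in the acute libraries of non-helpless and of helpless mice, then 499, 99 and 372 in the chronic libraries of non-helpless, non-recovered and recovered mice. Wherever 6 values follow each other below, they keep that order. Of these microglia 2704 reached 0.5% of their UMIs in a list of 7 microglial markers. The other deposited types were T Cells (161), Monocytes (42), NK Cells (39), Macrophages (25) and B Cells (17). Chronic non-recovered microglia were fewest and gave 303934 UMIs in total, against 1726795 to 2711534 in the others. The acute helpless library carried batch label 1, the acute non-helpless library 2 and the chronic libraries 3, while the non-shocked library had 123 microglia of batch 2 and 429 of batch 3. Acute helpless cells shared a batch with no other library, so batch and group cannot be told apart there. Only 5 barcode sequences occurred in more than 1 library.

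MHC class II molecules display peptides from the endosomal pathway to CD4 T cells, and they are made by professional antigen-presenting cells, namely dendritic cells, B cells and macrophages. H2-Aa and H2-Ab1 encode the α and β chain of the I-A molecule and H2-Eb1 the β chain of I-E. Cd74, the invariant chain, holds the empty molecule and escorts it to the endosome, where the H2-DM dimer (H2-DMa with H2-DMb1 or its close relative H2-DMb2) exchanges the invariant chain remnant for peptide. Ciita is the transactivator that switches the set on, acting with the RFX, CREB and NF-Y factors on short conserved boxes ahead of the genes. In the healthy brain, parenchymal microglia are known for low class II, and border macrophages and dendritic cells for high class II. Below, H2-Aa, H2-Ab1, H2-Eb1 and Cd74 are called the classical group, and H2-DMa and H2-DMb1 the H2-DM pair.

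Among the 7 genes, 5 lie within 197 kb on chromosome 17 of build GRCm38, between 34119693 and 34316674. From the centromeric side they are H2-DMa (34119693 to 34139101), H2-DMb1 (34153191 to 34160229), H2-Ab1 (34263227 to 34269418), H2-Aa (34282744 to 34287823) and H2-Eb1 (34305867 to 34316674). Ciita lies on chromosome 16 (10480014 to 10531064).

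The 120 bases ahead of the annotated start are shown for 3 genes, 2 of the classical group and 1 of the H2-DM pair, because the 2 groups behaved differently in microglia although both are known as targets of Ciita. Sequences are from RefSeq (GRCm38.p6), 5′ to 3′ on the gene's strand, with capitals marking ATTGG (or its reverse complement CCAAT), the core that NF-Y binds, and AACTGATGATGCT, the longest stretch that the H2-Eb1 and H2-DMb1 windows share.
H2-Aa, chr17:34287824-34287943, minus strand: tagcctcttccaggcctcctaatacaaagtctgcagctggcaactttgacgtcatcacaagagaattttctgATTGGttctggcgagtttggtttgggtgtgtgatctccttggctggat
H2-Eb1, chr17:34305747-34305866, plus strand: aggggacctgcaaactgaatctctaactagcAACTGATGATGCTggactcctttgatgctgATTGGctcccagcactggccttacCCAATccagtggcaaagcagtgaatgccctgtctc
H2-DMb1, chr17:34153071-34153190, plus strand: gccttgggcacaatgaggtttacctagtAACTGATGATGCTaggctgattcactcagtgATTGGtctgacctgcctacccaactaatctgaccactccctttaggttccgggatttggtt
Of the 7 genes, 4 matched the promoter table (H2-Aa, H2-Eb1, H2-DMa and H2-DMb1), and H2-Ab1, Cd74 and Ciita did not. On both strands of the 250 bases ahead of the start, ATTGG began 48 bases before the start of H2-Aa and 61 bases before that of H2-DMb1, and H2-Eb1 had 2 matches. Of 2 annotated H2-DMa starts, 1 had no match and the other had ATTGG 198 bases upstream. AACTGATGATGCT, 13 bases long, began 89 bases before H2-Eb1 and 92 bases before H2-DMb1, in each case upstream of ATTGG, and had no exact match ahead of H2-Aa or H2-DMa. ATTGG occurs in 33.8% of the 32851 promoter windows, and AACTGATGATGCT in 2 of them (0.00609%), the ones it was taken from. A match describes the letters only.

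In microglia the α and β chain genes were low, and lower in the 3 chronic libraries than in the others. H2-Aa stood at 47.5 CPM (38.2 to 58.5) in the non-shocked library, 41.5 (33.5 to 50.7) in microglia of acute non-helpless mice and 32.1 (25.7 to 39.6) in those of acute helpless mice. It stood at 6.57 CPM (3.59 to 11.02) in the chronic non-helpless library and 11 (6.62 to 17.2) in the chronic recovered one, and chronic non-recovered microglia had 0 UMIs, where 3 UMIs would be 9.87 CPM. The intervals of the 3 former libraries do not reach those of the chronic libraries. They treat UMIs as independent, yet 1 barcode held 84 of 89, 50 of 94 and 82 of 87 H2-Aa UMIs in the former. Without its 5 richest barcodes each of the 5 large libraries kept 0, 1.34, 0.37, 0.47 and 1.17 CPM of H2-Aa, so the separation rests on those barcodes. The UMIs came from very few cells: 5, 8, 6, 6, 0 and 7 microglia had any H2-Aa in the 6 libraries. H2-Eb1 followed H2-Aa closely, at 50.2, 41.0, 27.3, 6.57, 0 and 8.11 CPM in the same order, again with 10 or fewer positive microglia in each library. H2-Ab1 stood at 48.0, 26.5, 38.0, 16.9, 6.58 and 14.5 CPM and was found in more cells, 19 to 29 in the 5 large libraries. Its level in acute non-helpless microglia (20.2 to 34.1) overlapped the interval of the chronic non-helpless library (11.8 to 23.4), so these neighbours do not separate beyond counting error. The intervals of H2-Ab1 in the 3 chronic libraries overlap as well.

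Cd74 was the most abundant classical transcript in microglia of every library. It stood at 178 CPM (159 to 198) in the non-shocked library, and at 191 (174 to 210.3) and 132 (119 to 146) in the acute libraries of non-helpless and helpless mice. Chronic non-helpless and chronic recovered microglia had 92.0 CPM (79.5 to 106) and 93.2 (79.4 to 109), with overlapping intervals. Chronic non-recovered microglia had 4 UMIs, or 13.2 CPM (3.59 to 33.7), the one interval below all others. The share of microglia with a Cd74 UMI did not follow these levels: it was 7.97%, 8.44%, 8.10%, 8.42%, 4.04% and 9.95% in the same order, and all 6 intervals overlap.

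**Figure D1:**
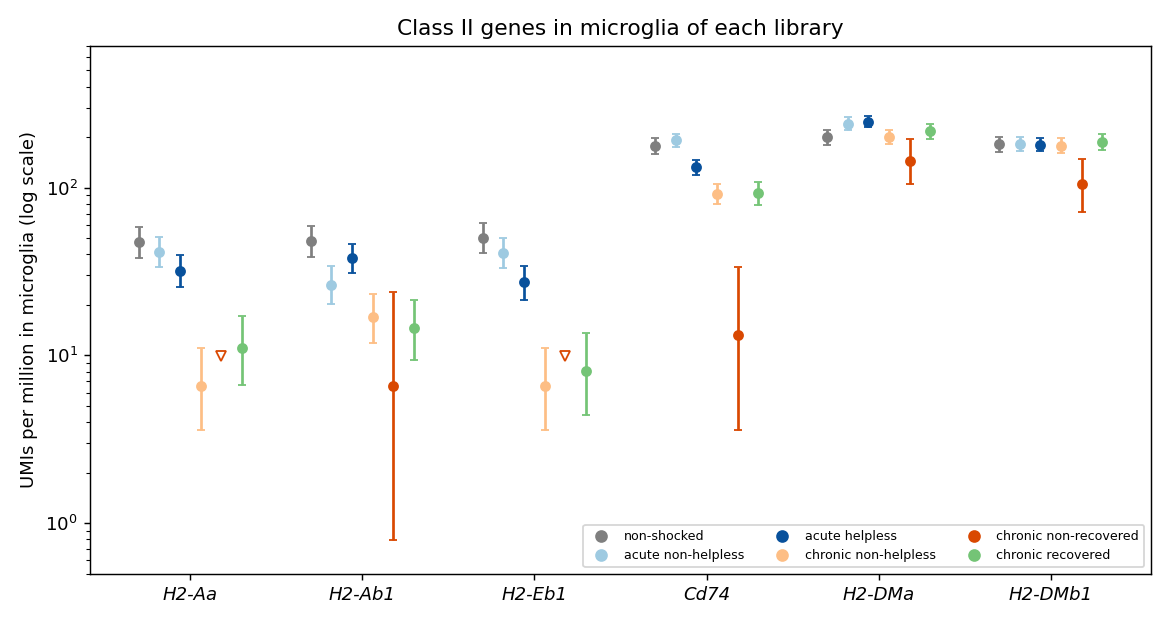
CPM of 6 class II genes in the deposited microglia of each library (log axis), with points for levels and bars for exact 95% Poisson intervals; open triangles stand at 3 UMIs where none was counted. The classical genes on the left spread widely between libraries, while H2-DMa and H2-DMb1 lie between 105 and 247 CPM in all 6.

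The 2 genes of the peptide-loading dimer showed the other pattern, similar levels in nearly all libraries and UMIs in many cells. H2-DMa, the α chain, stood at 200.2 CPM (180.4 to 221.5) in the non-shocked library, and at 241 (221.5 to 262) and 247 (229 to 267) in the acute libraries. In the chronic libraries it stood at 199.9 CPM (181 to 219.8) in non-helpless, 145 (105 to 194) in non-recovered and 217 (195 to 239.7) in recovered mice. H2-DMb1, the β chain, was between 178 and 186 CPM in 5 libraries and 105 CPM (72.0 to 149) in chronic non-recovered microglia. Among the H2-DMb1 intervals only that of chronic non-recovered microglia lies apart from the other 5. For H2-DMa, the acute helpless interval lies above those of the non-shocked and chronic non-helpless libraries. The chronic non-recovered H2-DMa interval lies below those of the acute and chronic recovered libraries. By batch H2-DMa stood at 247, 238 and 202 CPM in batches 1, 2 and 3. Because H2-DMb1 and H2-DMb2 are close paralogues, reads shared by them could have been counted for either or dropped. At least 1 UMI of the pair was found in 56.2% (51.9 to 60.3), 69.6% (65.6 to 73.4), 73.7% (70.03 to 77.1), 69.9% (65.7 to 73.9), 42.4% (32.5 to 52.8) and 74.5% (69.7 to 78.8) of microglia. The low shares belonged to the 2 libraries with the lowest depth, with median UMIs per microglial cell of 3060 and 2497 against 3676 to 4579.5. After each cell was thinned to 1000 UMIs the shares were 27.2%, 33.6%, 32.2%, 26.7%, 18.2% and 28.2%. Ciita was almost absent, with 2 UMIs in all 2721 microglia, 1 in the chronic non-helpless and 1 in the chronic recovered library; a count of 3 cells would be 0.110%.

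A handful of microglial barcodes supplied most classical UMIs, and this was not so for the H2-DM pair. Of the 2394 classical UMIs in microglia, 20 of 2721 barcodes with at least 10 UMIs each held 1910, and the 5 richest held 67.1%. The richest barcode alone held 77.6%, 46.3%, 80.1%, 46.9%, 16.7% and 44.3% of the classical UMIs of the 6 libraries, the fifth value being 1 of 6 UMIs. The 5 richest held 86.1%, 83.1%, 84.9%, 66.2%, 83.3% and 67.1%. For the H2-DM pair the 5 richest held 4.74% to 6.30% in the 5 large libraries and 23.7% in the chronic non-recovered one. To reach 50% of the UMIs, 1 to 3 barcodes per library sufficed for the classical group, against 76 to 125 for the H2-DM pair in the large libraries. Without its 5 richest barcodes each library kept 45.8, 51.3, 35.1, 41.8, 3.48 and 42.5 classical CPM, so the 5 large libraries then lay within 35.1 to 51.3 CPM. For all 7 genes together the 5 richest barcodes held 41.0%, 36.2%, 31.5%, 17.4%, 23.2% and 17.9% of the UMIs.

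**Figure D2:**
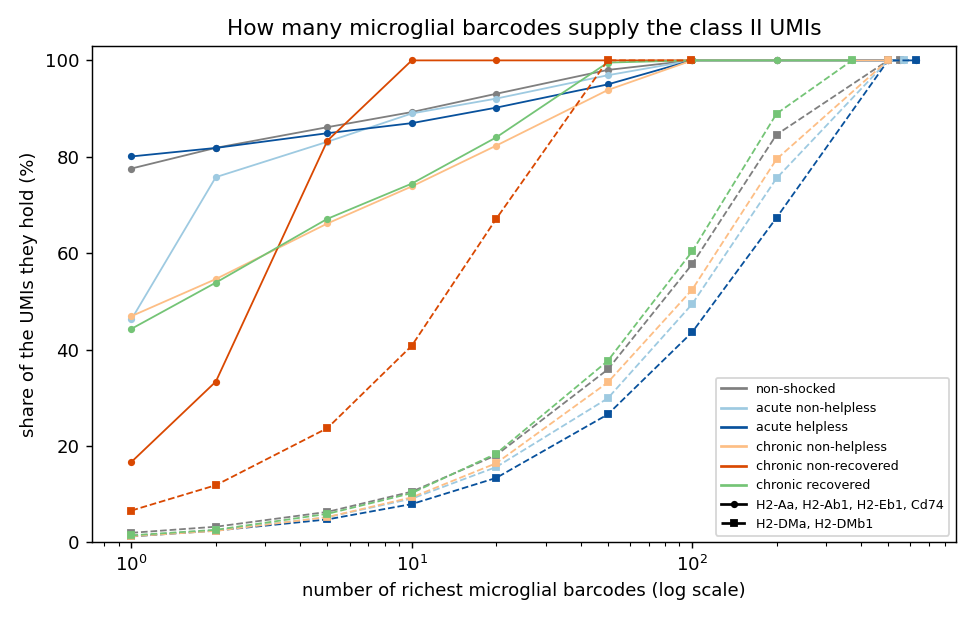
Share of the microglial class II UMIs (y axis, %) held by the richest 1, 2, 5, 10 and more barcodes (x axis, log scale) in each library, for the classical group (solid lines, circles) and the H2-DM pair (dashed lines, squares). Solid lines start at 16.7% to 80.1% with 1 barcode, and dashed lines pass 20% only beyond 20 barcodes except in the chronic non-recovered library.

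The rich microglial barcodes were of several kinds by their other transcripts. The richest of the acute helpless library (498 classical UMIs of 7174) had 2.80% of its UMIs in microglial markers and 1 UMI in all in the lists for the other cell types. In the non-shocked library the richest barcode (470 of 19731) had 3.00% microglial markers and small numbers of border macrophage (4), dendritic cell (3), B cell (8) and monocyte (6) marker UMIs. The second acute non-helpless barcode (201 UMIs) had 0.21% microglial markers and 11 border macrophage UMIs, whereas the first (315 UMIs) had 2.75% microglial markers and 0 border macrophage UMIs. The richest chronic non-helpless barcode (122 UMIs) had 106 B cell marker UMIs and 2 microglial ones, and the richest chronic recovered barcode (97 UMIs) had 0 microglial and 9 B cell UMIs. Thus 15 of the 20 rich barcodes carried microglial markers at 0.5% or more and 5 did not. The 17 microglia below 0.5% held 469 of the 2394 classical UMIs (19.6%). Scrublet, a doublet caller, marked 1 of the 20 rich barcodes and 50 of all microglia. The H2-DM pair stood at 632 CPM in the 20 rich barcodes, 409 CPM in 317 barcodes with 1 to 9 classical UMIs and 396 CPM in 2384 with none, and 85.0% of the rich barcodes had a UMI of it.

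The mix of transcripts also differed between rich and poor barcodes. In the 20 rich microglia Cd74 made up 61.2% of classical UMIs, H2-Aa 14.7%, H2-Eb1 13.7% and H2-Ab1 10.4%. Macrophages with at least 10 UMIs had nearly that mix, at 61.6%, 14.9%, 13.4% and 10.02%. So did Monocytes (60.2% Cd74) and T Cells barcodes (59.8%) with at least 10 UMIs, while such B Cells had 74.5% Cd74. By library, Cd74 in the rich microglia ranged from 52.4% (non-shocked) to 79.9% (chronic non-helpless and chronic recovered). In the 317 microglia with 1 to 9 UMIs H2-Ab1 made up 24.2%, against 4.55% for H2-Aa and 5.79% for H2-Eb1. The 48 T Cells barcodes with 1 to 9 UMIs showed that second mix too, with 24.1% H2-Ab1, 3.61% H2-Aa and 2.41% H2-Eb1. For comparison, 5 of 39 NK Cells (12.8%), a type that should lack the group, had a classical UMI, always Cd74, at a median depth of 7463 UMIs, against 12.4% of microglia at 3987. All 5 were among the 20 NK Cells with at least 0.5% microglial markers. After thinning to 1000 UMIs the shares were 4.73% of microglia and 0 of 39 NK Cells, where 3 cells would be 7.69%. The 19 NK Cells under 0.5% had 0 classical UMIs, so barcodes with microglial transcripts supplied all of the NK value.

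The classical group was far higher in Macrophages, B Cells and Monocytes than in Microglia and lower in NK Cells, and the order of types differed between the classical group and the H2-DM pair. Summed over libraries the classical group stood at 55462.5 CPM (53831 to 57131) in Macrophages, 17339 (16481 to 18230.0) in B Cells, 14338 (13960 to 14724) in Monocytes, 784 (747 to 821) in T Cells, 217 (209 to 226) in Microglia and 19.3 (7.07 to 41.9) in NK Cells. These counting intervals do not overlap, but Macrophages and B Cells are 25 and 17 cells. All 25 Macrophages, 15 of 17 B Cells and 27 of 42 Monocytes had a classical UMI. Only 12 of the 17 B Cells had 10 or more. The 3 chronic non-helpless B Cells held 9 classical UMIs of 12473, and the 1 chronic non-recovered B cell held 0. Microglia, 90.5% of all cells, held 15.5% of the classical UMIs but 80.5% of those of the H2-DM pair. The pair stood at 1040.2 CPM in Macrophages, 681 in Monocytes, 401 in Microglia, 294 in T Cells, 283 in B Cells and 160.5 in NK Cells, a range under 10-fold. Ciita had 7 UMIs in 5 Macrophages (88.8 CPM), 5 in 4 B Cells (56.7 CPM), 16 in 7 Monocytes (42.1 CPM), 6 in T Cells (2.70 CPM) and 1 in NK Cells.

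**Figure D3:**
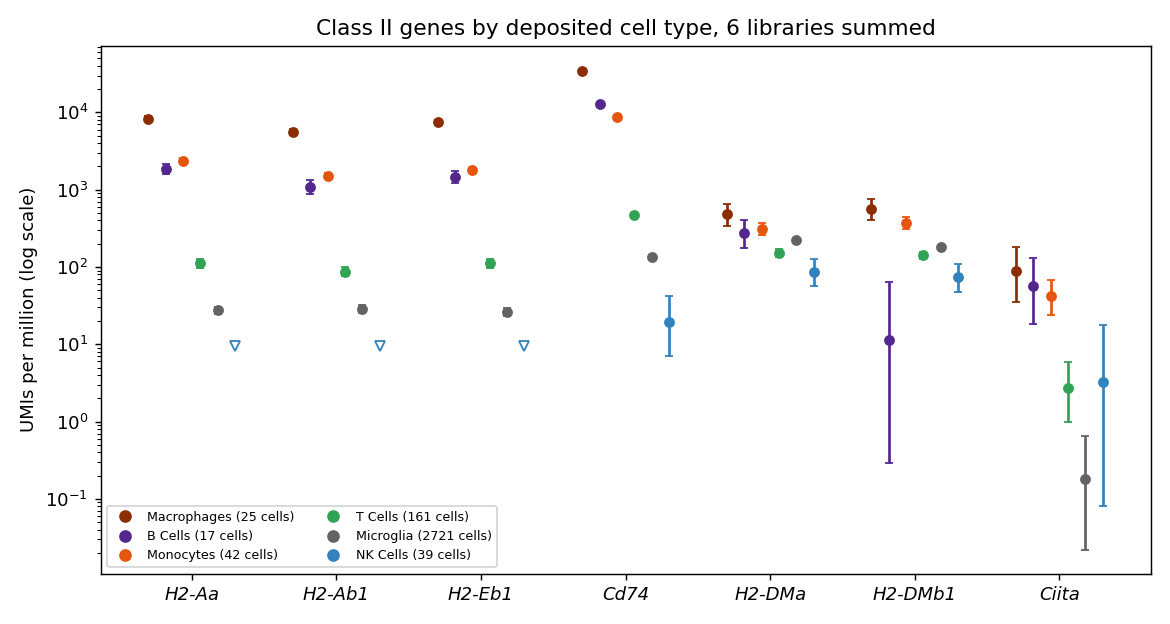
CPM (log axis) of the 7 genes in each deposited cell type, summed over the 6 libraries, with exact 95% Poisson intervals; open triangles stand at 3 UMIs where none was counted. The 4 classical genes are highest in Macrophages and lowest in NK Cells, H2-DMb1 is near 0 in B Cells, and Ciita is lowest in Microglia.

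H2-DMb1 set B Cells apart, with 1 UMI in 17 cells (11.3 CPM, 0.29 to 63.1) beside 24 UMIs of H2-DMa (272 CPM). Its relative H2-DMb2, looked up after this value was seen, had 44 UMIs in B Cells (499 CPM, 362 to 669) and stood at 14.5 CPM (12.4 to 17) in Microglia, where H2-DMb1 stood at 179. The β chain genes of the dimer were thus in opposite order in the 2 types. H2-Oa and H2-Ob, which encode the H2-DO dimer that inhibits H2-DM, stood at 181 and 272 CPM in B Cells against 57.3 and 36.2 in Microglia.

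The deposited classes were checked against marker lists, and some held other cells. All 17 B Cells had at least 20 B cell marker UMIs and none reached 0.5% microglial markers. Of the 25 Macrophages, 7 had at least 20 B cell marker UMIs, 8 reached 0.5% microglial markers and only 2 had 10 or more border macrophage UMIs, so the name Macrophages is not borne out by the border macrophage list for most. The 7 B-marked barcodes held 1120 of the 4372 classical UMIs. Among Monocytes 27 of 42 reached 0.5% microglial markers, 4 carried 10 or more neutrophil UMIs, and 4 carried 10 or more dendritic cell UMIs. Those 4 held 2998 of 5450 classical UMIs (55.0%), and the 3 richest, all of the chronic recovered library, had 1162, 922 and 780 classical UMIs with 23, 49 and 20 dendritic cell UMIs. By library, Monocytes stood at 17227 CPM in 3 non-shocked cells, 36807 and 1235 in 4 and 7 cells of the acute libraries (non-helpless and helpless), 5008 in 13 chronic non-helpless cells and 23598 in 14 chronic recovered cells, and the 1 chronic non-recovered cell had none.

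In the T Cells class 59 of 161 barcodes (36.6%) had a classical UMI, and 11 barcodes held 1660 of the 1743 UMIs (95.2%). The chronic recovered library supplied 1564 of them, from 31 of its 63 T Cells barcodes. The share with a classical UMI was 21.1% of 19 barcodes in the non-shocked library, 22.2% of 9 and 26.7% of 30 in the acute libraries (non-helpless and helpless), and 36.0% of 25, 33.3% of 15 and 49.2% of 63 in the chronic libraries (non-helpless, non-recovered and recovered). All these intervals overlap (6.05 to 45.6 in the first and 36.4 to 62.1 in the last). After thinning to 1000 UMIs the shares were 5.56%, 11.1%, 6.67%, 4.0%, 0 of 14 barcodes and 16.4%; in the chronic non-recovered library 3 of its 15 barcodes would be 20%.

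The barcodes that held these UMIs mostly carried microglial transcripts as well. Of the 161, 116 reached 0.5% microglial markers, and these mixed barcodes held 1721 of the 1743 classical UMIs (874 CPM) at a median depth of 17527.5 UMIs. The other 45 held 22 UMIs (85.9 CPM) at a median of 5190. Among the 11 rich barcodes 10 were mixed and 9 had at least 2 UMIs of the T cell receptor complex. The 4 richest, all chronic recovered and all between 26416 and 29180 UMIs in depth, held 480, 471, 236 and 209 classical UMIs, with 1.99%, 1.82%, 1.54% and 1.55% microglial markers, 33, 17, 51 and 50 receptor complex UMIs and 9, 3, 6 and 8 border macrophage UMIs. Next came an acute helpless barcode with 100 classical UMIs, which had 35 B cell marker UMIs, 2.42% microglial markers and no receptor complex UMI. The one rich barcode that was not mixed, from the chronic non-helpless library, had 17 classical UMIs, no receptor complex UMI and 13 monocyte marker UMIs. No rich barcode thus held the T cell receptor complex with under 0.5% microglial markers. The acute non-helpless one, with 10 classical and 49 receptor complex UMIs, lay just above that limit at 0.52%. Of all 161 barcodes, 133 had at least 2 receptor complex UMIs. Scrublet marked 6 of the 161 barcodes and none of the 11.

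The H2-DM pair in T Cells and NK Cells lay almost wholly in mixed barcodes. In T Cells 646 of 654 UMIs were in the 116 mixed barcodes, at 328 CPM (303 to 355), against 31.2 CPM (13.5 to 61.6) in the other 45. In NK Cells 49 of 50 UMIs were in 20 mixed barcodes, at 219.8 CPM (163 to 291), against 11.3 CPM (0.29 to 62.8) in the other 19. Microglia with at least 0.5% markers had 402 CPM (390.0 to 414). What part the microglial transcripts in a barcode have in its class II counts was not tested.

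**Figure D4:**
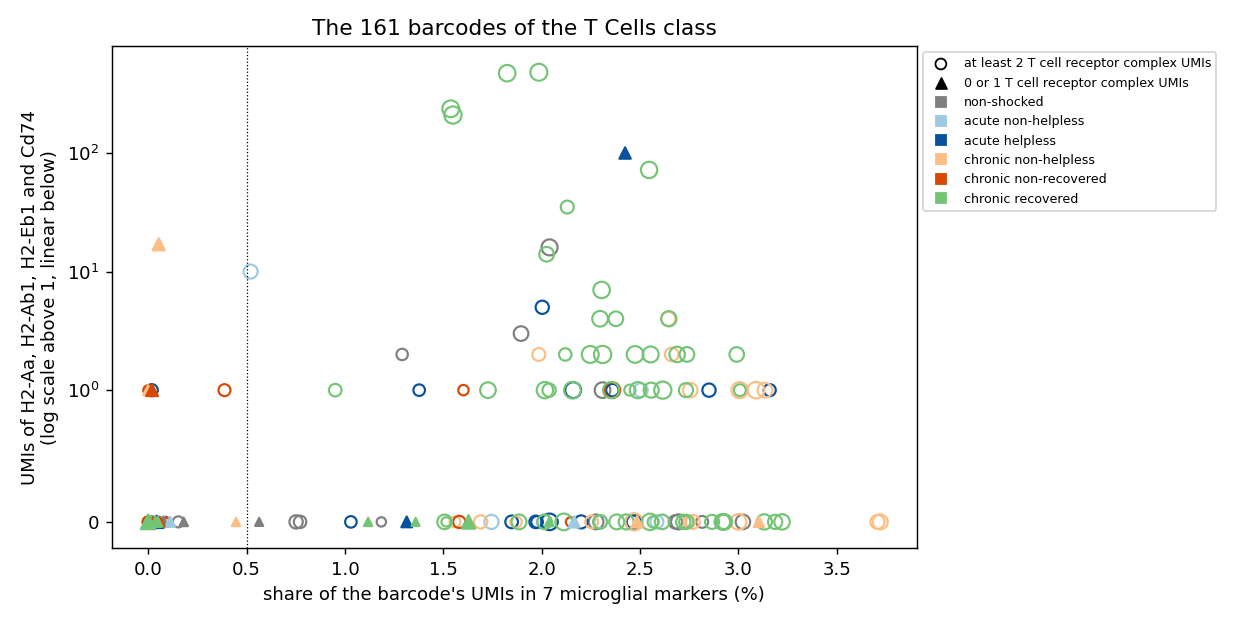
Each of the 161 T Cells barcodes by the share of its UMIs in 7 microglial markers (x axis, %) and its UMIs of H2-Aa, H2-Ab1, H2-Eb1 and Cd74 (y axis, log above 1); colour gives the library, shape the T cell receptor complex UMIs and size the barcode's depth. The dotted line is at 0.5%, and 10 of the 11 barcodes with 10 or more UMIs lie to its right.

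Across the 6 deposited clusters, microglial classical levels followed the rich barcodes. They stood at 39.3 CPM in cluster 1, 174 in cluster 2, 107 in cluster 3, 85.2 in cluster 4, 1089 in cluster 5 and 1425 in cluster 6. In cluster 6 the non-shocked barcode described above supplied 470 of 598 UMIs, and in cluster 2 the acute helpless one supplied 498 of 713. Cluster 5 held the acute non-helpless barcodes with 315 and 201 UMIs and the chronic non-helpless one with 122. Of these, the 201-UMI barcode had 0.21% microglial markers and 11 border macrophage UMIs, and the 122-UMI barcode had 106 B cell marker UMIs. The share of microglia with a classical UMI was 8.09% in cluster 6 and 12.04% in cluster 2, and highest in cluster 5, at 18.4%. Thinned to 1000 UMIs, it was 10.4% in cluster 5 against 3.76% in cluster 1 and 3.996% in cluster 2, and 10.5% in the 39 cells of cluster 4. Cluster 5 contained microglia of the acute non-helpless (121) and chronic non-helpless (96) libraries only, so cluster and library cannot be told apart in that difference. The H2-DM pair ranged only from 298 CPM in cluster 6 to 437 in cluster 5. It was found in 80.9% and 78.2% of microglia in clusters 1 and 2, and in 30.2% to 39.2% in clusters 3, 4 and 6. These H2-DM shares are unthinned, and the part of depth per cell in them was not tested.

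The acute comparison asks how microglia differ between mice that became helpless the day after the shocks and mice that did not. The classical group was 1.31-fold lower in acute helpless microglia (1.17 to 1.46; 622 against 681 UMIs), and the H2-DM pair had a ratio of 1.01 (0.927 to 1.1). Among 6 genes measured (those with 20 CPM and 10 UMIs or more in the library where they were higher), 1 was at least 1.5-fold lower, H2-Eb1 at 1.503-fold (1.1 to 2.07), and none higher, while 9.28% of the 6907 genes measured were that much lower and 8.89% higher. Cd74 was 1.45-fold lower (1.26 to 1.67) and H2-Ab1 1.44-fold higher (1.03 to 2.01). The members' median log2 ratio was -0.19, beside -0.06 for all genes. The size and direction of the classical difference moved with a few barcodes: the ratio was 0.283 (0.229 to 0.348) without the richest barcode of each library and 0.685 (0.516 to 0.907) without the 5 richest, and it turned with the marker filter. Among microglia with at least 0.5% microglial markers and under 3 UMIs of every other marker list (2275 of 2721), acute helpless cells had 570 UMIs and acute non-helpless cells 97, a ratio of 5.21 (4.20 to 6.53), because the 498-UMI barcode passed this filter and the 315-UMI and 201-UMI barcodes did not. The limit of 3 UMIs was not scaled to depth. The 315-UMI barcode, at 10082 UMIs in depth, had 4 B cell and 3 monocyte marker UMIs. Microglia had a median of 1 B cell marker UMI. The part of depth in passing the filter was not tested. The H2-DM pair had a ratio of 1.04 (0.94 to 1.15) under the marker filter.

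The question in the chronic paradigm is what sets apart microglia after lasting helplessness from those after recovery or without helplessness. Both class II groups were lower in the chronic non-recovered library. The classical group was 6.42-fold lower than in chronic recovered microglia (2.90 to 17.7; 6 against 219 UMIs) and 6.18-fold lower than in chronic non-helpless ones (2.80 to 16.99; 260 UMIs). The H2-DM pair was 1.61-fold (1.27 to 2.07) and 1.51-fold (1.19 to 1.94) lower, with 76 UMIs against 696 and 805. Against each library 2 of 3 genes measured were at least 1.5-fold lower, where 13.8% and 13.7% of all genes measured were: Cd74 was 7.08-fold (2.71 to 26.3) and 6.99-fold (2.69 to 25.9) lower, and H2-DMb1 1.77-fold (1.23 to 2.63) and 1.69-fold (1.18 to 2.50) lower. H2-DMa, just inside that limit, was 1.496-fold (1.09 to 2.09) and 1.38-fold (1.011 to 1.93) lower. The members' median log2 ratio was -0.82 and -0.76, against 0.08 and 0.04 for all genes. H2-Aa and H2-Eb1 had 0 UMIs in the non-recovered library, but were under 20 CPM in the other libraries too and are given no fold. Without the 5 richest barcodes of each library the classical ratio to chronic recovered microglia rested on 1 UMI against 72 (0.082, 0.0020 to 0.47), and that of the H2-DM pair was 0.53 (0.40 to 0.69). With the marker filter the classical group stood at 5 against 90 UMIs, a ratio of 0.26 (0.084 to 0.64). The H2-DM pair then had a ratio of 0.63 (0.48 to 0.82). The non-recovered library also had the fewest cells and a median of 2497 UMIs per microglial cell. Among its 99 microglia 2 had 10 or more neutrophil marker UMIs, with a maximum of 6451. Its microglia with 0 classical UMIs had a median of 2.57% microglial markers, against 3.26% to 3.79% in the other libraries. The part of these differences in the result was not tested. Thinned to 1000 UMIs, the H2-DM share of the non-recovered library was 18.2%, the lowest of the 6, which is given without an interval and is no test of depth. Between chronic recovered and chronic non-helpless microglia neither group differed by 1.5-fold: the ratio was 1.04 (0.86 to 1.25) for the classical group and 1.07 (0.96 to 1.18) for the H2-DM pair, and 0 of 3 genes measured passed 1.5-fold either way, beside 4.04% of all genes higher and 3.20% lower. These 3 comparisons share libraries and are not independent.

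Against the non-shocked library, the 2 larger chronic libraries were lower in the classical group, and this held only with the richest barcodes. Chronic non-helpless microglia had 2.65-fold (2.29 to 3.08) and chronic recovered microglia 2.55-fold (2.18 to 2.99) lower classical CPM, and all 4 classical genes of 6 genes measured were at least 1.5-fold lower in both, where 14.3% and 14.0% of all genes were. H2-Aa was 7.23-fold (4.09 to 13.8) and 4.32-fold (2.61 to 7.51) lower in these libraries. Without the richest barcode of each library the classical ratios were 0.88 (0.69 to 1.13) and 0.96 (0.75 to 1.24), and among marker-filtered microglia they were 1.55 (1.1 to 2.2) and 1.90 (1.34 to 2.72), on the other side of 1. The filter's limit of 3 UMIs was not scaled to depth, and the non-shocked barcode with 470 classical UMIs did not pass it. The H2-DM pair had ratios of 0.991 (0.895 to 1.098) and 1.06 (0.95 to 1.18). Chronic non-recovered microglia had 5 of 6 genes at least 1.5-fold lower (11.4% of all genes): H2-Aa was at least 4.81-fold lower and H2-Eb1 at least 5.08-fold lower, against a floor of 3 UMIs. With no floor, H2-Ab1 (2 against 90 UMIs) was 7.30-fold (1.96 to 61.2), Cd74 13.5-fold (5.23 to 49.9) and H2-DMb1 1.72-fold (1.19 to 2.55) lower. H2-Aa, H2-Ab1 and H2-Eb1 were under 20 CPM in the chronic libraries, and Cd74 in the non-recovered one. They were thus measured only through the non-shocked library, where 1 barcode held 84 of 89 H2-Aa and 85 of 94 H2-Eb1 UMIs. The non-recovered classical ratio of 0.061 (0.022 to 0.134) became 0.23 (0.072 to 0.54) without the richest barcode of each library and 0.503 (0.157 to 1.25) with the marker filter, an interval that includes 1. The 429 non-shocked microglia of batch 3, the batch of the chronic libraries, gave 0.35 (0.30 to 0.40), 0.36 (0.31 to 0.42) and 0.056 (0.021 to 0.12) for the classical group in the chronic non-helpless, recovered and non-recovered libraries.

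Acute helpless microglia had a classical ratio to non-shocked ones of 0.71 (0.63 to 0.79) and 1 of 6 genes at least 1.5-fold lower, H2-Eb1 (24.2% of all genes were lower). With the marker filter the classical ratio turned to 7.57 (5.72 to 10.2, 570 against 54 UMIs). The acute helpless barcode with 498 classical UMIs, at 7174 UMIs in depth, passed this filter, and the non-shocked one with 470, at 19731, did not. Without the richest barcode of each library the ratio was 0.62 (0.49 to 0.80), and without the 5 richest 0.77 (0.56 to 1.04). Acute non-helpless microglia had a classical ratio to non-shocked ones of 0.93 (0.83 to 1.04) and 1 of 6 genes at least 1.5-fold lower, H2-Ab1 (21.2% of all genes). This classical ratio was 2.21 (1.81 to 2.71) without the richest barcode of each library and 1.45 (1.03 to 2.07) with the marker filter, on the other side of 1. Against the 123 non-shocked microglia of their own batch 2, which held only 9 classical UMIs, acute non-helpless microglia had a classical ratio of 5.82 (3.05 to 12.8), with H2-Aa at least 2.41-fold, H2-Eb1 at least 2.39-fold and Cd74 6.68-fold (2.84 to 20.7) higher, where 25.7% of all genes measured in that comparison were at least 1.5-fold higher. H2-Aa and H2-Eb1 had 0 UMIs and Cd74 5 UMIs in those 123 cells. H2-Aa and H2-Eb1 were thus measured only through the acute library. There the 5 richest barcodes for each gene held 91 of 94 H2-Aa and 88 of 93 H2-Eb1 UMIs. The 5 richest acute non-helpless barcodes supplied 566 of the 681 classical UMIs, and without them that library kept 51.3 CPM. All non-shocked microglia of batch 2 stood at 51.6 CPM (23.6 to 97.9), with no barcode left out. Only the acute library was trimmed, by the counts being compared, so these levels are not a like-for-like comparison. Of the 123 non-shocked microglia, 67 were too shallow to be thinned. What part rich barcodes or depth have in the ratio was not tested. The H2-DM pair had a ratio of 1.23 (0.95 to 1.63) to the non-shocked microglia of batch 2 and 1.11 (1.008 to 1.23) to the whole non-shocked library.

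**Figure D5:**
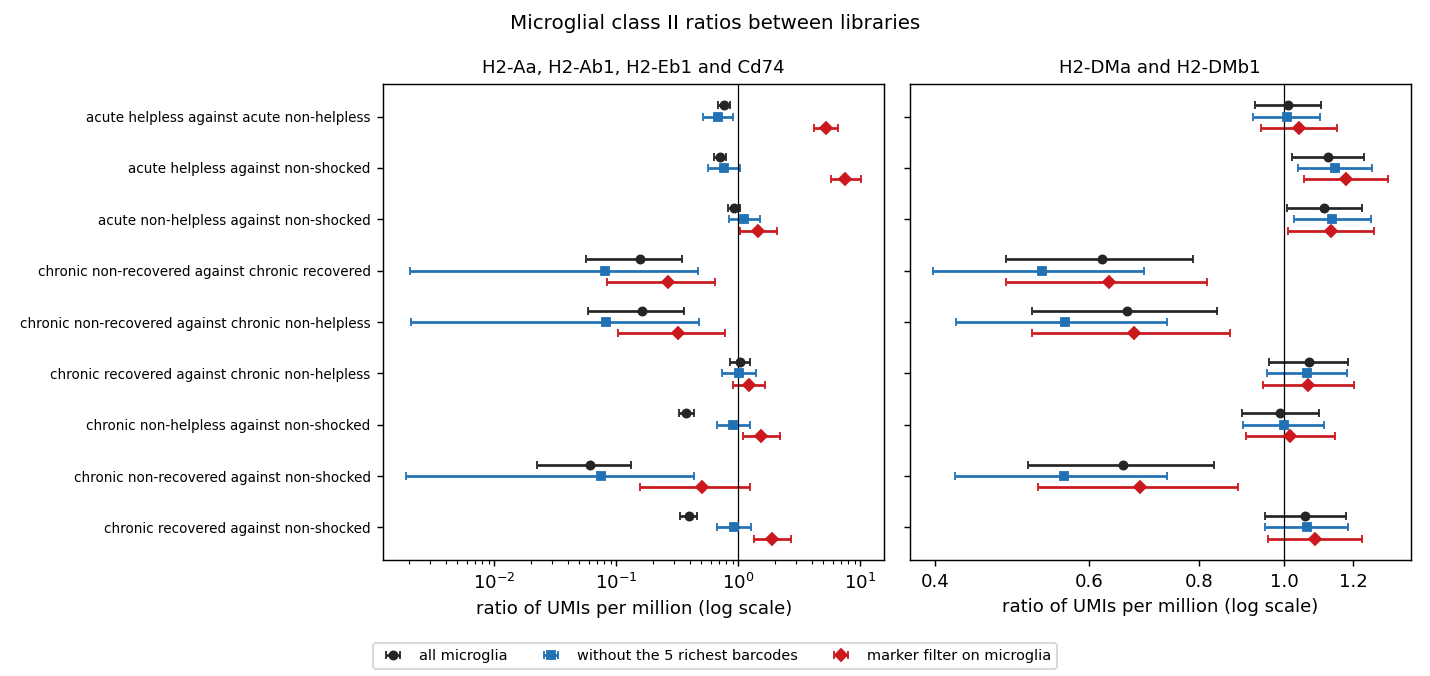
Ratio of microglial CPM between libraries (x axis, log scale) in each of 9 comparisons, for the classical group (left) and the H2-DM pair (right), with exact 95% intervals; circles use all microglia, squares leave out the 5 richest barcodes of each library, and diamonds keep microglia that pass the marker filter. Classical ratios move across 1 with the setting in 5 of the comparisons, and the H2-DM ratios differ little between settings.

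The other genes of the pathway were described from a list of 25 that act in class II loading, regulation or co-stimulation. In the acute comparison 1 of 20 measured was at least 1.5-fold higher (Ifngr2) and 1 lower (Rfxank), where 8.89% of all genes were higher and 9.28% lower. In chronic non-recovered against recovered microglia 1 of 17 was higher and 4 were lower, where 24.1% of all genes were higher and 13.8% lower. In chronic recovered against non-helpless microglia 1 of 18 was higher (Ifngr2) and none lower, where 4.04% of all genes were higher and 3.20% lower. Ctsl, the lysosomal protease cathepsin L, stood at 869 CPM in chronic non-recovered microglia and was 1.66-fold lower than in chronic recovered (1.46 to 1.89) and 1.64-fold lower than in chronic non-helpless ones (1.44 to 1.86). H2-Oa had 8 UMIs in the non-recovered library and was 2.24-fold (1.10 to 5.34) and 2.16-fold (1.06 to 5.11) lower. March1, a ubiquitin ligase that removes class II from the surface, was 1.74-fold (1.41 to 2.13) and 1.68-fold (1.37 to 2.05) higher there. H2-Ob and Nfyc, and Rfxank above, outside the naming rule and were named after their values were seen. Ifngr2, a chain of the interferon-γ receptor, varied between libraries: it stood at 330.4 CPM in non-shocked microglia, 165 and 307 in the acute libraries (non-helpless and helpless), and 132, 322 and 298 in the chronic libraries (non-helpless, non-recovered and recovered). It was thus 1.87-fold (1.65 to 2.12) higher in acute helpless than acute non-helpless microglia and 2.44-fold (1.92 to 3.08) and 2.25-fold (1.95 to 2.62) higher in non-recovered and recovered than in chronic non-helpless ones. Both non-helpless libraries were low in it. Irf1, a transcription factor of the interferon response, was 1.70-fold (1.34 to 2.16) lower in acute helpless than in non-shocked microglia. Ifi30, a thiol reductase of the loading compartment, had 616 and 706 UMIs in the acute libraries and was listed at 0 in every microglial cell of batch 3, like 158 of 4126 genes that reach 50 CPM in one batch and are at 0 in another. It was therefore compared within batch 2 only, where it was 1.69-fold (1.16 to 2.57) higher in acute non-helpless than in non-shocked microglia. None of the 3 members that reach 50 CPM was at 0 in a batch.

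The genes whose counts per cell most resembled the members' sum differed between the groups as well. Over 2600 microglia with at least 1000 UMIs, Pearson's r with the summed 7 genes reached at most 0.26 (Rplp1, Eef1a1, B2m, Rps29, Tmsb4x, Rpl21, Rpl13, Rpl19, Rpl39 and Tpt1, down to 0.24). For the classical group alone the first were Lilrb4a (0.23), Cybb (0.22), Axl (0.21), Clic4 (0.21) and Itgax (0.20), each found in 22 to 84 cells, and for the H2-DM pair Cst3 (0.29), Itm2b (0.27) and C1qb (0.27), found in nearly all. Over 2878 barcodes of all classes the genes most like the summed 7 genes included Ms4a1 (0.32), Fcmr (0.30), Cd79a (0.29), Ly6d (0.28), Ebf1 (0.27), Tnfrsf13c (0.27), Napsa (0.27), Axl (0.26) and Ifi27l2a (0.25), most of them B cell genes. All values come from sparse counts of shared cells and depth and are descriptions only.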

How the data were processed

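Raw UMI counts per gene and cell, as the authors deposited them for 6 libraries, were used with the deposited cell metadata (batch, cluster, cell type), per the file headers. Cell Ranger 2.2.0, Seurat 2.3.4 and build mm10 are named per the submitters' processing notes; cell filters, clustering and typing are not given in the sources used here. No doublets were removed, and Scrublet (scanpy 1.11.5) served as an alternative. UMIs were summed per library, cell type and cluster and divided by all UMIs of those cells (CPM). A library difference was a ratio of CPM with a conditional exact 95% interval (scipy 1.17.1), given as an inverse where lower. In counts of genes 1.5-fold apart, 0 to 2 UMIs in the lower library were set to 3. Barcodes with at least 0.5% microglial marker UMIs are called mixed in other classes. Thinning drew 1000 UMIs per cell and left out shallower cells. Coordinates are from RefSeq's GRCm38.p6, the assembly mm10 names. Named genes were all 7 members, listed pathway genes 1.5-fold apart with 50 CPM and 30 UMIs, the 10 most correlated genes, and the 3 richest barcodes per library and class. The calculations were tested on simulated data with independent Poisson counts per gene. Such counts lack the crowding of UMIs in single barcodes, so the intervals were not tested for it. The members and lists were chosen with earlier results of these data known. Results for some genes that the naming rule covers are not reported here.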

Additional observations from a re-analysis of the deposited data

How the results depend on the processing

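With 1 library per group, values moved by more than their counting interval are given here; the cause was not tested. The ratio of the 7 genes in chronic non-recovered microglia to both other chronic libraries kept its direction and stayed within its interval under each alternative run. Acute helpless against acute non-helpless (0.908), the ratio was 1.52 with the marker filter, 0.802 without the richest barcode, 0.981 without the 5 richest and 0.986 without Cd74. Acute helpless against non-shocked (0.933), it was 1.77 with the filter, 1.04 and 1.08 without 1 and 5 barcodes, 1.197 with cells weighted equally, 1.07 with size factors and 1.27 thinned. Acute non-helpless against non-shocked (1.03), it was 1.16 with the filter, 1.30 without the richest barcode, 1.28 weighted equally, 1.14 with size factors, 1.83 within the batch and 1.42 thinned. Chronic recovered against non-helpless (1.06), it was 1.38 weighted equally and 1.25 thinned. Against non-shocked microglia, with the filter, without 1 and 5 barcodes, weighted equally, without Cd74 and thinned, it was 1.07, 0.979, 0.985, 0.978, 0.775 and 1.02 for chronic non-helpless (0.710), 0.669, 0.572, 0.524, 0.544, 0.487 and 0.518 for non-recovered (0.383), and 1.16, 1.05, 1.05, 1.35, 0.830 and 1.27 for recovered microglia (0.753).

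The share of microglia with a UMI of the 7 genes (59.1%, 72.2%, 75.9%, 72.9%, 44.4% and 77.2%) was 37.5%, 45.5%, 53.5%, 47.1%, 23.2% and 55.4% at 2 UMIs or more, and 30.2%, 36.7%, 34.1%, 29.7%, 21.6% and 32.3% thinned. In the non-shocked library it was 66.7% among cells of at least 1000 UMIs and 54.6% with the filter. The share of the 5 richest barcodes was 6.68%, 6.32%, 37.9%, 7.94% and 9.43% with the filter, and 28.4%, 20.9%, 19.6%, 7.70% and 7.95% without Cd74, in the libraries other than the non-recovered one. The share of T Cells with a UMI of the 7 genes (68.4%, 88.9%, 56.7%, 80%, 40% and 84.1%) was 38.9%, 44.4%, 16.7%, 24%, 0 and 36.1% thinned. Outside the non-recovered library it was 16.7%, 0, 21.4%, 33.3% and 0 in barcodes under 0.5% microglial markers, and 21.1%, 22.2%, 26.7%, 36% and 49.2% for the classical group; in the non-recovered library it was 13.3% at 2 UMIs or more. The thinned and the classical T Cells shares were chosen after seeing the data.

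The number of genes 1.5-fold apart, with a minimum of 50 CPM, was 0 in acute helpless against non-helpless (1 in the report) and acute non-helpless against non-shocked (1), 2 in chronic non-helpless (4) and recovered (4) and 3 in non-recovered (5) against non-shocked microglia. With a minimum of 5 CPM it was 5 in non-recovered (2) and 1 in recovered (0) against chronic non-helpless microglia. Of the ratios under all alternatives 36 moved and 58 did not. No acute helpless comparison could be made within a batch. No paired analysis was possible because each group has 1 library and the labels give no replicate numbers. Depth limits Ciita, and the non-recovered library, whose 6 classical UMIs set the width of its intervals.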
